A study of Mus musculus with 28 samples.

Results

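The endothelial cell genes of mouse pancreatic islets are a list of 40 genes, matched by symbol to the rows of a table of 14219 genes in 28 libraries. Of these, 38 had a row, and 37 passed a filter on low values (at least 1 CPM, counts scaled to library size, in at least 6 libraries). Ly6c1 lay below that filter, and Cldn5 and Sox17 had no row and were not analysed here. Each library was bulk RNA from 120 to 150 islets of 1 male mouse aged 10 to 12 weeks, on a background of C57Bl6 and 129sv, after a night in culture. All mice carried Klf6 flox/flox. The groups were labelled βKlf6KO S961 (8 libraries, Klf6 flox/flox; Ins1Cre/+), control S961 (8 libraries, Klf6 flox/flox; Ins1+/+), βKlf6KO saline (6 libraries) and control saline (6 libraries). Cre stands in 1 Ins1 allele and therefore acts in β cells, so endothelial cells of these mice should keep Klf6, a zinc-finger transcription factor. S961 is an insulin receptor antagonist peptide. The comparison of interest, per the labels, is between βKlf6KO and control islets within each treatment.

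Islets are among the most densely vascularised tissues. Their capillaries are lined by fenestrated endothelium, which β cells maintain by secreting VEGF-A, the ligand of the receptor KDR (VEGFR2). Angiopoietins act on the endothelial receptor TEK (Tie2), with TIE1 as its co-receptor, and apelin acts on APLNR. ETS-family factors such as ERG and FLI1, with SOX17 and SOX18, maintain expression of endothelial genes. Endothelial cells are a minority of islet cells and are lost from islets in culture, so their RNA is a small part of each library. In such bulk RNA, fewer endothelial cells and less RNA per endothelial cell cannot be told apart.

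The libraries held 28868638 to 45001633 reads over listed genes, so that 3 reads, the limit set by a count of 0, corresponded to 0.0685 to 0.105 CPM (counting error only). The level of the targeted gene did not follow the labels. Bulk RNA also holds Klf6 RNA of cells that should keep the gene, so it is a limited check of loss in β cells. Klf6 had 83.3 to 246 CPM with a median of 162.2 in libraries labelled βKlf6KO S961, against 72.4 to 341.6 CPM with a median of 110.8 in those labelled control S961. It had 103.3 to 169.9 CPM with a median of 119 in libraries labelled βKlf6KO saline, against 81.8 to 203.8 CPM with a median of 126.9 in those labelled control saline. The log2 ratio of Ins1 to Ins2, which loss of 1 Ins1 allele to Cre should lower, had medians of -2.16 (βKlf6KO S961) and -1.27 (control S961), but of -1.25 (βKlf6KO saline) and -1.78 (control saline). Groups are therefore named as labelled. Of the 28 libraries, 3 (control S961 replicates 2 and 8 and control saline replicate 4) had the highest scores on the first principal component of all genes. They are called the libraries that stood apart, and the members' values in them are described by GC content at the end. Labelled βKlf6KO S961 replicate 8 held the most acinar RNA, 102172 CPM over 10 acinar genes.

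The promoters shown here are those of 2 members that hold a short ETS or SOX motif, Emcn and Robo4, and of the 2 members whose levels the comparisons turn on, Esm1 and Nrp1, which hold none. Each is the 250 bases before the transcription start in RefSeq (GRCm38.p6), written 5′ to 3′ on the gene's strand (plus for all 4), with motif matches in capitals. The Emcn promoter lies at chr3:137340828-137341077, with CAGGAAG on the opposite strand (read as CTTCCTG here) at -174 and AACAAT at -50. The Robo4 promoter lies at chr9:37401722-37401971, with CAGGAAG at -50. The Esm1 promoter lies at chr13:113209409-113209658 and the Nrp1 promoter at chr8:128358823-128359072.
Emcn: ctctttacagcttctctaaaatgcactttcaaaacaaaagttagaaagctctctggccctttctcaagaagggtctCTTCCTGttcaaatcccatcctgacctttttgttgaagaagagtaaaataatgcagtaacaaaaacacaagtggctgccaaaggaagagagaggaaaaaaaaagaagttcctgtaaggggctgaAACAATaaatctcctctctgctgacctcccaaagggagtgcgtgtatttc
Robo4: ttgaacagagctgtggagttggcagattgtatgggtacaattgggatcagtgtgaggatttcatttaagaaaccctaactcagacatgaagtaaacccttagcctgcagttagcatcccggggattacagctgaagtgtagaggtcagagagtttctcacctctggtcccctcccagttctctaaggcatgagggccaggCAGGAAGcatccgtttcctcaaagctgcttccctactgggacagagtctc
Esm1: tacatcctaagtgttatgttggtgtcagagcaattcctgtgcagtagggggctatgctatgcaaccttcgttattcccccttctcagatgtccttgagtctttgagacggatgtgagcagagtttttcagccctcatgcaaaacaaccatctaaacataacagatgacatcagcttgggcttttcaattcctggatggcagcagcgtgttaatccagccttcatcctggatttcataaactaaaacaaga
Nrp1: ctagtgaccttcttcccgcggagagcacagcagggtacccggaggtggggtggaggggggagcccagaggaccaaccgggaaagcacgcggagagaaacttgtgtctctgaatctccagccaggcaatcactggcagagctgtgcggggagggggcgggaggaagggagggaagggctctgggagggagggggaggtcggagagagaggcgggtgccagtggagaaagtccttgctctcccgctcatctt

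The search used CCGGAAG and CAGGAAG for ETS factors and AACAAT for SOX factors, on both strands. RefSeq promoters were at hand for 22 of the 40 members, with 28 starts. CAGGAAG was present in 10 of these 28 (35.7%, 9 of 22 genes) and in 10.8% of all 32851 promoters of the same length. CCGGAAG was present in none of the 28, against 6.91% of all promoters, and AACAAT in 4 of 28 (14.3%), against 9.42%. A match of this kind is a run of letters and not a measured binding site.

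Endothelial RNA was detected in every library. The 16 defining markers with a row (of 18 in the list) summed to 112.5 to 233.3 CPM in libraries labelled βKlf6KO S961 (median 174.2) and 157.9 to 218.2 CPM in those labelled control S961 (median 170.2). The sums were 138.7 to 201.1 CPM in libraries labelled βKlf6KO saline (median 166.5) and 133.8 to 240.5 CPM in those labelled control saline (median 199.1). A sum weighs the genes of highest CPM most. The mean log2 CPM of the same markers, which weighs each alike, had medians of 2.62 (βKlf6KO) and 2.63 (control) after saline. After S961 its medians were 2.68 (βKlf6KO) and 2.45 (control). The 4 groups overlapped throughout. The lowest sum was that of βKlf6KO S961 replicate 8, the library with the most acinar RNA, where 9 members had their lowest value of all 28 libraries. The same count, 9, was found in control S961 replicate 8 (35156 CPM of acinar genes), and 8 in control S961 replicate 2 (5498 CPM).

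**Figure D1:**
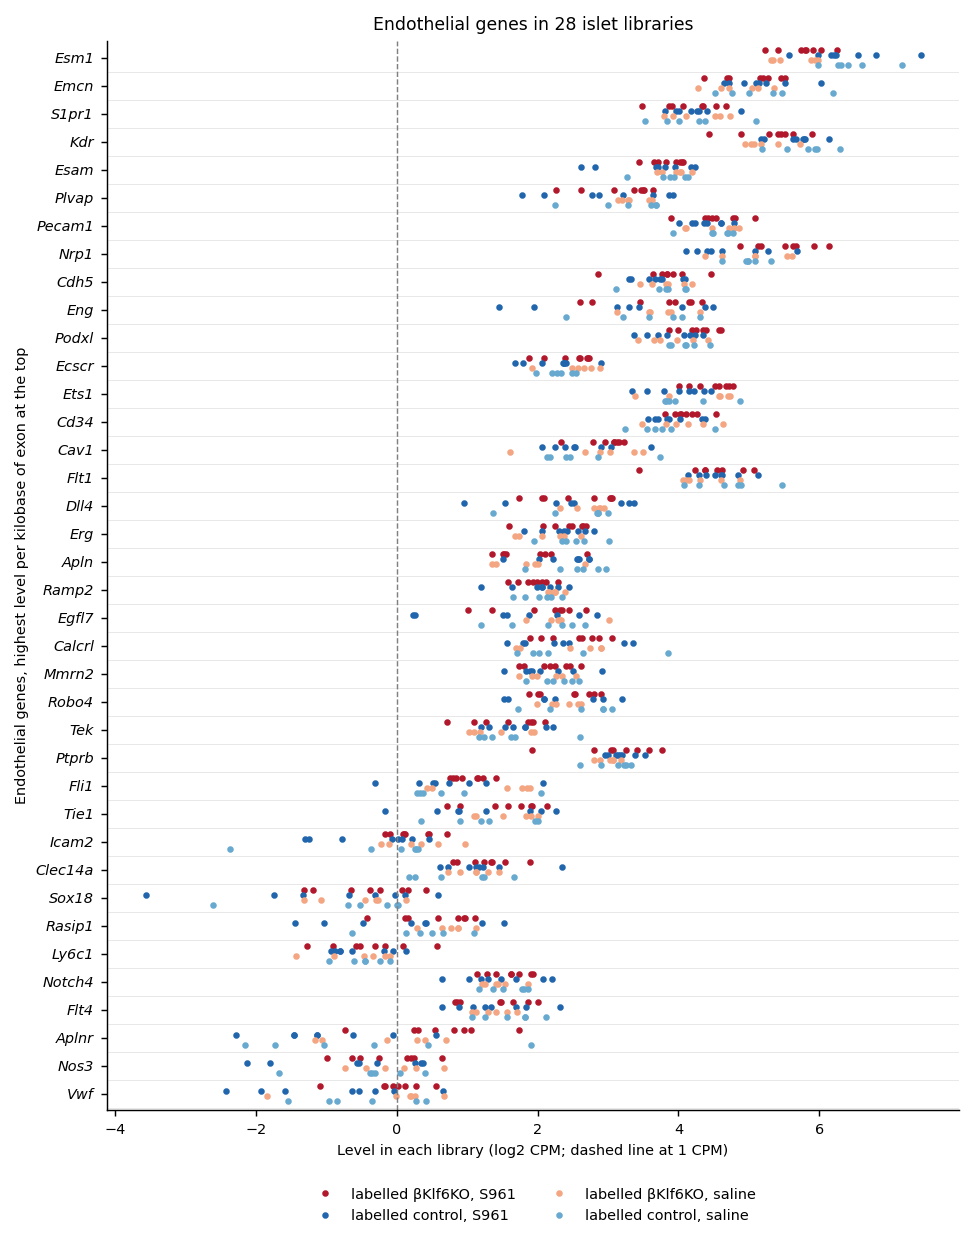
Level of each of the 38 listed endothelial genes in each of the 28 libraries, in log2 CPM, with genes ordered by mean level per kilobase of exon and 4 rows of points per gene, 1 for each labelled group. The groups overlap for nearly every gene.

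Per kilobase of exon, Esm1 had the highest level of the 38 members, at 34.3 CPM per kb. Esm1 (endothelial cell-specific molecule 1, or endocan) is a secreted proteoglycan of VEGF-responsive tip cells (ENSMUSG00000042379, GRCm38 chromosome 13, 113209659 to 113218098, plus strand). Emcn, the capillary sialomucin endomucin, followed at 6.56 CPM per kb, and S1pr1, the main endothelial sphingosine-1-phosphate receptor, at 6.29. Kdr had 5.19 CPM per kb and Esam, an adhesion molecule of tight junctions, 5.01. The level of Esm1 is thus over 5 times that of the next member, whereas the next 4 lie close together.

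The lowest level per kilobase was that of Vwf, the clotting factor stored in large-vessel endothelium, at 0.0545 CPM per kb. Nos3 (endothelial nitric oxide synthase) had 0.219 CPM per kb and Aplnr 0.303. Plvap, which forms the diaphragms of fenestrae, had 4.88 CPM per kb, more than Pecam1 (3.68) and Cdh5 (3.34), the pan-endothelial junction proteins. Ly6c1, a surface antigen of capillary endothelium, had medians of only 0.752, 0.608, 0.755 and 0.731 CPM in the groups βKlf6KO S961, control S961, βKlf6KO saline and control saline, and was not tested.

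After S961, 1 of the 37 tested members passed the test between the labelled genotypes, at an adjusted p below 0.05 (limma across all genes, Benjamini-Hochberg). Nrp1 rose in islets labelled βKlf6KO, and no member fell. Of all 13591 genes tested, 4.36% were called in this comparison, 2.35% higher and 2.01% lower. At an unadjusted p below 0.05 stood 6 of the 37 members (4 higher, 2 lower), against 22.9% of all genes. The median difference over the members was 0.16 on the log2 scale, with a range of -0.60 to 1.56, and 0.02 over all genes. That median was -0.05 with macrophage and lymphocyte means as covariates, -0.04 with quantile normalization and -0.03 without the 3 libraries that stood apart, and 0.07 on leaving out control S961 replicate 8, so its sign was not stable. The difference was above 0 for 26 of 37 members and for 52.3% of all genes. No member had groups that did not overlap, against 0.383% of all genes. For 27 of 37 members the 95% interval of the difference lay within a 2-fold change in either direction.

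After saline, no member passed the limma test between the labelled genotypes, against 2.78% of all genes (2.09% higher, 0.692% lower). The count was 0 with voom weights as well, and 3 members, all lower, were at an unadjusted p below 0.05, against 14.4% of all genes. The median difference was 0.10 over the members, with a range of -0.80 to 0.60, and 0.00 over all genes. The difference was above 0 for 24 of 37 members and for 49.8% of all genes. The interval lay within 2-fold for 25 of 37 members.

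**Figure D2:**
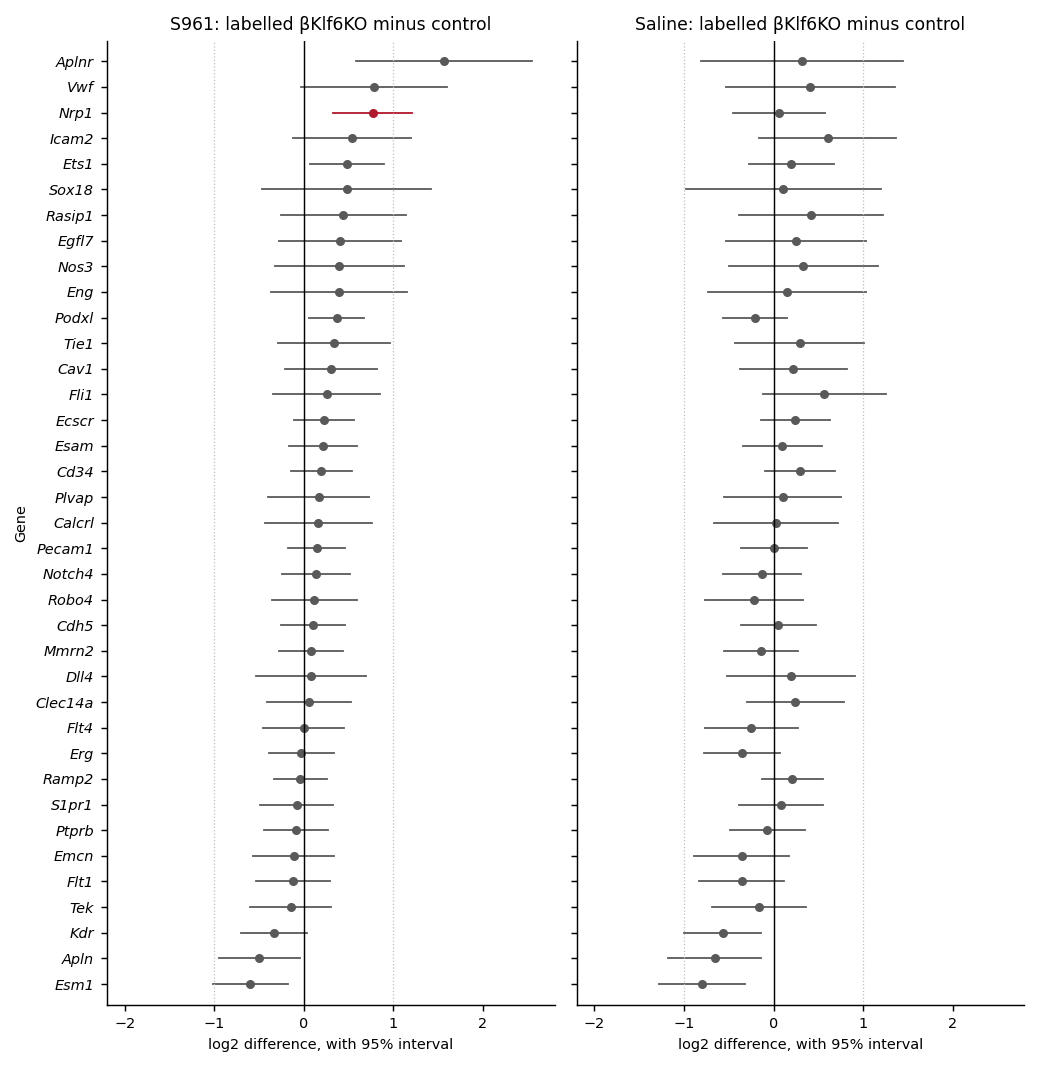
Difference in log2 CPM of each of the 37 tested members, libraries labelled βKlf6KO minus libraries labelled control, after S961 (left) and after saline (right), as points with 95% intervals, and dotted lines at a 2-fold change. Nrp1 after S961 (red) is the single call, and Esm1, Apln and Kdr have the 3 lowest differences in both panels.

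The junction and adhesion genes showed no call. Pecam1, an adhesion molecule of all endothelium, had 14.9 to 34.2 CPM (median 22.7) in libraries labelled βKlf6KO S961, against 16.1 to 27.7 CPM (median 21.0) in those labelled control S961. It had 17.1 to 29.2 CPM (median 24.3) in libraries labelled βKlf6KO saline, against 15.1 to 27.3 CPM (median 24.1) in those labelled control saline. The groups overlapped almost completely. The log2 difference of Pecam1 was 0.14 after S961 (95% interval -0.17 to 0.46) and 0.00 after saline (-0.36 to 0.37). Those intervals bound any difference in Pecam1 to well under 2-fold.

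Cdh5, or VE-cadherin, the protein of endothelial adherens junctions, differed by 0.10 on the log2 scale after S961 (95% interval -0.26 to 0.46, limma adjusted p = 0.723) and by 0.05 after saline (-0.36 to 0.47, adjusted p = 0.941). Esam differed by 0.22 and 0.10 (adjusted p = 0.492 after S961 and 0.897 after saline). Icam2, an adhesion receptor for leukocytes, was near 1 CPM with a wider interval and was not called in either comparison.

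Among the VEGF receptors after S961, Nrp1 and Kdr differed most. Nrp1 encodes neuropilin-1, a co-receptor of VEGF-A and semaphorins that mesenchymal and immune cells also make (ENSMUSG00000025810, GRCm38 chromosome 8, 128358604 to 128503363, plus strand). After S961 it had 29.4 to 70.4 CPM (median 47.4) in libraries labelled βKlf6KO, against 17.2 to 51.6 CPM (median 23.3) in those labelled control. All 8 of the βKlf6KO libraries lay above the mean of the controls, although the ranges overlapped. The log2 difference was 0.77 ± 0.22 (SE, 95% interval 0.32 to 1.21, 1.70-fold, n = 8 each, limma adjusted p = 0.0438).

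After saline, Nrp1 had 20.7 to 49.1 CPM (median 34.0) in libraries labelled βKlf6KO, against 24.6 to 39.7 CPM (median 31.6) in those labelled control. The log2 difference was 0.06 ± 0.25 (SE, limma adjusted p = 0.945). The difference between the S961 and the saline value of Nrp1 was itself 0.71 ± 0.33 and did not pass (unadjusted p = 0.0415, limma adjusted p = 1). By sequencing lane, the mean log2 difference of Nrp1 after S961 was 0.54, 1.17, 1.07 and 0.30 in lanes 4 to 7, with 2 libraries per genotype in each.

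The call of Nrp1 lay close to the threshold. It was lost on leaving out 1 of 12 of the 28 libraries, with an adjusted p of up to 0.102 without βKlf6KO S961 replicate 6 (log2 difference 0.68). It was kept on leaving out any of the other 16, over a range of 0.68 to 0.90 for the log2 difference across all 28. The adjusted p was 0.133 with only the S961 libraries in the fit (log2 difference 0.77), 0.158 with the means of macrophage and lymphocyte genes as covariates (0.67), 0.0662 with library weights (0.73) and 0.057 with median centring (0.71). The log2 difference stayed between 0.67 and 0.90 under all 15 settings tried besides leaving out single libraries. The tested macrophage genes had a median log2 difference of 0.59 between the labelled genotypes after S961, so the macrophage covariate in part followed the label.

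Kdr encodes VEGFR2, the main signalling receptor for VEGF-A. It had 21.7 to 59.9 CPM (median 43.2) in libraries labelled βKlf6KO S961, against 36.0 to 70.7 CPM (median 52.8) in those labelled control S961. After saline it had 30.7 to 52.7 CPM (median 34.8) in libraries labelled βKlf6KO, against 36.5 to 78.3 CPM (median 59.4) in those labelled control. The groups overlapped in both treatments, but 7 of the 8 βKlf6KO S961 libraries and all 6 of the βKlf6KO saline libraries lay below the mean of their controls. The log2 difference was -0.33 ± 0.18 after S961 (SE, limma adjusted p = 0.272) and -0.57 ± 0.21 after saline (adjusted p = 0.155), and neither was called. Flt1 and Flt4, the other VEGF receptor tyrosine kinases, were not called.

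The angiopoietin receptor genes Tek, Tie1 and Ptprb (the phosphatase VE-PTP, which acts on TEK) were not called. Tie1 had 1.65 to 4.39 CPM (median 3.20) in libraries labelled βKlf6KO S961, against 0.893 to 4.80 CPM (median 2.13) in those labelled control S961. After saline it had 2.13 to 4.03 CPM (median 3.21) in libraries labelled βKlf6KO, against 1.27 to 4.01 CPM (median 2.38) in those labelled control. The ranges overlapped widely, and the log2 differences of Tie1 were 0.34 ± 0.30 (SE, adjusted p = 0.512) and 0.29 ± 0.35 (adjusted p = 0.8).

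The tip cell and apelin genes held the lowest difference in both comparisons (Esm1) and the highest after S961 (Aplnr). The highest after saline was that of Icam2 (0.60). After saline, Esm1 had 40.0 to 63.0 CPM (median 51.5) in libraries labelled βKlf6KO, against 63.2 to 144 CPM (median 81.9) in those labelled control. The groups did not overlap, although their nearest libraries all but touched. Esm1 was the single member of which this was so, and 4.1% of all genes did not overlap in that comparison. The log2 difference was -0.80 ± 0.23 (SE, 95% interval -1.28 to -0.32, 0.573-fold, n = 6 each), with a limma adjusted p of 0.0608, which did not pass.

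After S961, Esm1 had 37.4 to 76.5 CPM (median 55.8) in libraries labelled βKlf6KO, against 47.4 to 173.7 CPM (median 74.9) in those labelled control. All 8 βKlf6KO libraries lay below the mean of the controls, with overlapping ranges. The log2 difference was -0.60 ± 0.20 (SE, 95% interval -1.01 to -0.18, limma adjusted p = 0.0811). By sequencing lane, the differences of Esm1 were -0.25, -0.82, -0.34 and -0.98 after S961 and -0.21, -0.60, -0.999 and -1.02 after saline, in lanes 4 to 7, with 1 or 2 libraries per genotype after saline. Each of the 8 was negative.

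The highest Esm1 values in both control groups came from libraries that stood apart, control S961 replicate 2 and control saline replicate 4. Without the 3 libraries that stood apart, the log2 difference of Esm1 after saline was -0.66 and passed (limma adjusted p = 0.0294). After S961 it did not pass without them, and the adjusted p was 0.19 without control S961 replicate 2 alone. With a correction for GC content the difference was -0.69 after saline (adjusted p = 0.00379) and -0.46 after S961 (adjusted p = 0.014). That correction called 8.71% of all genes after saline and 19.0% after S961. With the means of macrophage and lymphocyte genes as covariates the difference after saline was -0.53, with an adjusted p of 0.598. After S961 it was -0.37 with these covariates, with an adjusted p of 0.401. The tested macrophage genes themselves had a median log2 difference of 1.14 between the labelled genotypes after saline. The covariates thus in part followed the label, and the fit cannot fully separate the 2.

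Apln encodes apelin, a peptide secreted by tip cells. It had 2.54 to 6.48 CPM (median 3.52) in libraries labelled βKlf6KO S961, against 2.84 to 6.62 CPM (median 5.95) in those labelled control S961. After saline it had 2.54 to 6.36 CPM (median 3.74) in libraries labelled βKlf6KO, against 3.52 to 7.84 CPM (median 6.08) in those labelled control. The ranges overlapped while the medians stood apart, and the log2 difference was -0.50 ± 0.22 after S961 (SE, limma adjusted p = 0.175) and -0.66 ± 0.25 after saline (adjusted p = 0.185). Neither was called.

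Aplnr, the apelin receptor (ENSMUSG00000044338, GRCm38 chromosome 2, 85136225 to 85139923, plus strand), had the highest difference of all members after S961. It had 0.602 to 3.32 CPM (median 1.60) in libraries labelled βKlf6KO, against 0.205 to 1.47 CPM (median 0.456) in those labelled control. All 8 βKlf6KO libraries lay above the mean of the controls, with overlapping ranges. The log2 difference was 1.56 ± 0.48 (SE, 95% interval 0.58 to 2.54, limma adjusted p = 0.0557), which did not pass. It passed under 6 alternatives, among them leaving out control S961 replicate 1 (adjusted p = 0.0316) and leaving out the 3 libraries that stood apart (adjusted p = 0.0213). The adjusted p was 0.12 without βKlf6KO S961 replicate 7 and 0.11 with macrophage and lymphocyte means as covariates. Over 14 settings besides leaving out single libraries, the log2 difference ran from 0.635 to 1.80, and the adjusted p reached 0.192 over all alternatives. After saline, Aplnr had 0.447 to 1.62 CPM in libraries labelled βKlf6KO, against 0.223 to 3.75 CPM in those labelled control, and differed by 0.32 ± 0.55.

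**Figure D3:**
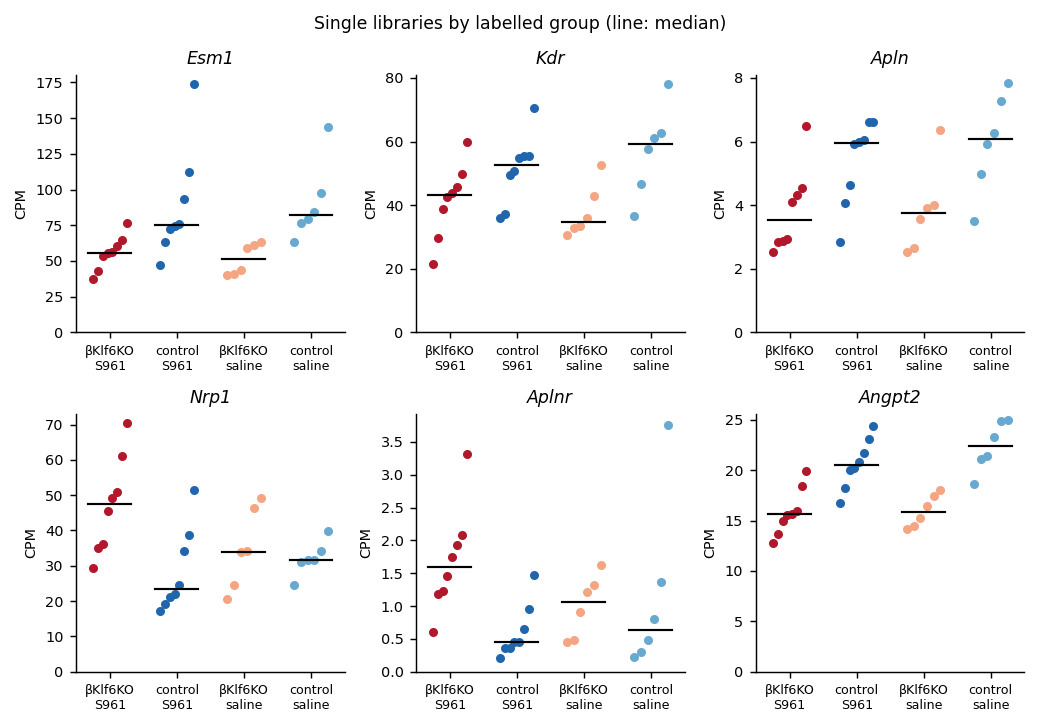
CPM of 5 endothelial genes and of the ligand Angpt2 in each library, by labelled group, with a line at the group median. The medians of Esm1, Kdr, Apln and Angpt2 in βKlf6KO libraries lie below those of the controls after S961 and after saline (called for Angpt2), and Nrp1 and Aplnr lie higher after S961 (called for Nrp1).

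The transcription factors Erg, Fli1, Ets1 and Sox18 were not called. Ets1, an ETS factor that lymphocytes also make, had 16.1 to 27.4 CPM (median 23.4) in libraries labelled βKlf6KO S961, against 10.1 to 22.1 CPM (median 16.9) in those labelled control S961. Its log2 difference was 0.48 ± 0.20 (SE, limma adjusted p = 0.151), with all 8 βKlf6KO libraries above the mean of the controls. Erg, the ETS factor most restricted to endothelium, differed by -0.03 after S961 and -0.35 after saline (adjusted p = 0.926 and 0.474). The Notch ligand Dll4, a mark of tip and arterial cells, and the receptor Notch4 were not called.

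None of the 10 tested genes of capillary and surface proteins was called. Their differences ran from -0.11 to 0.40 after S961 (9 higher, 1 lower) and from -0.36 to 0.29 after saline (6 higher, 4 lower). Plvap had 4.81 to 12.5 CPM (median 10.7) in libraries labelled βKlf6KO S961, against 3.42 to 15.2 CPM (median 8.28) in those labelled control S961. After saline it had 8.84 to 12.3 CPM (median 9.78) in libraries labelled βKlf6KO, against 4.77 to 12.9 CPM (median 10.98) in those labelled control. The βKlf6KO ranges of Plvap lay within the control ranges, and the log2 differences were 0.16 ± 0.28 (SE, adjusted p = 0.725) and 0.10 ± 0.32 (adjusted p = 0.928). Reads of Plvap, Cd34, Eng, Egfl7 and Rasip1 may include reads of a listed gene on the opposite strand that overlaps them, since the sources used here do not state the strand setting of the count.

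Emcn differed by -0.11 ± 0.22 after S961 and -0.36 ± 0.26 after saline (SE, limma adjusted p = 0.764 and 0.601). Podxl encodes podocalyxin, a sialomucin of the luminal surface. It had 14.5 to 24.3 CPM (median 19.7) in libraries labelled βKlf6KO S961, against 10.3 to 20.3 CPM (median 15.6) in those labelled control S961. The ranges overlapped, with 7 of 8 βKlf6KO libraries above the mean of the controls, and the log2 difference was 0.37 ± 0.15 (SE, limma adjusted p = 0.15). After saline its difference was -0.20 ± 0.17 (adjusted p = 0.686).

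The 7 vasoactive and signalling genes gave no call. Ramp2, the subunit that makes the receptor encoded by Calcrl respond to adrenomedullin, was among the steadiest members, with a within-group SD of 0.275 on the log2 scale, the lowest of the 37. It had 4.43 to 5.22 CPM (median 4.71) in libraries labelled βKlf6KO saline, against 3.15 to 5.09 CPM (median 4.22) in those labelled control saline, a log2 difference of 0.21 ± 0.17 (SE, limma adjusted p = 0.649). S1pr1 differed by -0.08 ± 0.20 after S961 and 0.08 ± 0.23 after saline (adjusted p = 0.819 and 0.919).

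S961 against saline gave no call among the members, in islets of either label, nor among any of the 13591 genes (0% called by limma in both). In islets labelled βKlf6KO, 1 member had an unadjusted p below 0.05, against 3.04% of all genes, and the differences ran from -0.31 to 0.78 with a median of 0.06, above 0 for 22 of 37 members and 50.6% of all genes. That member was Podxl, with 14.5 to 24.3 CPM (median 19.7) after S961 and 10.7 to 21.5 CPM (median 14.5) after saline, a log2 difference of 0.38 ± 0.16 (SE, limma adjusted p = 1). The next smallest p in these islets were those of Nrp1 (0.45 ± 0.23) and Ramp2 (-0.29 ± 0.16), both with an adjusted p of 1. Pecam1 differed by 0.04 (95% interval -0.31 to 0.38) and Kdr by 0.09 (-0.31 to 0.49). In control islets no member did, against 0.765% of all genes, and the differences ran from -0.47 to 0.35 with a median of -0.12, above 0 for 6 of 37 members and 50.2% of all genes. Voom weights also gave no call among the members in either comparison. The smallest p in control islets were those of Clec14a, a surface lectin of endothelium (0.35 ± 0.25), of Egfl7, a secreted protein of endothelial matrix (-0.44 ± 0.36), and of Podxl (-0.20 ± 0.16), each with a limma adjusted p of 0.973. Pecam1 differed by -0.11 (-0.45 to 0.24) and Kdr by -0.15 (-0.55 to 0.25). The interval lay within 2-fold for 34 of 37 members in βKlf6KO islets and 32 in control islets.

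The difference between the genotype effects after S961 and after saline was called for no member and for no gene (0%, limma). At an unadjusted p below 0.05 stood 2 members, against 2.58% of all genes, Nrp1 and Podxl (0.57 ± 0.23, adjusted p = 1). The values ran from -0.31 to 1.25 with a median of 0.14, above 0 for 28 of 37 members and 51.5% of all genes, and 23 of 37 intervals lay within 2-fold. For Aplnr the value was 1.25 ± 0.73, for Esm1 0.20 ± 0.31 (95% interval -0.43 to 0.84) and for Kdr 0.24 ± 0.28 (-0.33 to 0.80).

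Of 14 genes of vascular ligands with a row (of 21 listed), Angpt2 fell in islets labelled βKlf6KO after S961 and after saline, and no other was called. With 4.36% of all genes called after S961 and 2.78% after saline, this is given for the gene alone. Angiopoietin-2, made largely by activated endothelium, competes with angiopoietin-1 for TEK. It had 12.8 to 19.9 CPM (median 15.6) in libraries labelled βKlf6KO S961, against 16.7 to 24.4 CPM (median 20.5) in those labelled control S961. After saline it had 14.2 to 18.02 CPM (median 15.9) in libraries labelled βKlf6KO, against 18.6 to 25.0 CPM (median 22.4) in those labelled control. The groups of Angpt2 overlapped after S961 and did not overlap after saline, as for 4.1% of all genes in that comparison.

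The log2 difference of Angpt2 was -0.38 ± 0.09 after S961 (SE, limma adjusted p = 0.0252) and -0.48 ± 0.11 after saline (adjusted p = 0.0115). After S961 the call was lost on leaving out control replicate 3 or 5 or βKlf6KO replicate 8 (adjusted p up to 0.0644), with only the S961 libraries in the fit (-0.38, adjusted p = 0.112), with library weights (-0.30, 0.104) and with macrophage and lymphocyte means as covariates (-0.40, 0.0607). After saline it was kept on leaving out any 1 library and lost with those means as covariates, where the difference was -0.48 (adjusted p = 0.148). These covariates in part followed the label, and with them the calls over all genes after saline fell to 48, against 378. A call lost in that fit therefore does not tell the label from those cells. Angpt2 overlaps Mcph1 on the opposite strand, which had a mean of 11.8 CPM against 18.6 CPM for Angpt2. Vegfa had 99.8 to 184.3 CPM (median 133) in libraries labelled βKlf6KO S961, against 120.6 to 214 CPM (median 159.9) in those labelled control S961, and was not called after S961 (log2 difference -0.23, adjusted p = 0.273) or after saline (-0.16, adjusted p = 0.718).

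Of 27 further endothelial genes outside the 40, 20 were tested, and after S961 Aqp1 alone was called, while none was called after saline. With 4.36% of all genes called after S961, 1 call in this list, and 1 in each of the next lists, is near the background and is given for the gene alone. Aqp1, a water channel of endothelium and of other cells, rose after S961, with 1.19 to 5.16 CPM (median 2.78) in libraries labelled βKlf6KO, against 0.123 to 1.84 CPM (median 0.788) in those labelled control (log2 difference 1.85 ± 0.51, limma adjusted p = 0.0407). Of 16 tested partners in these pathways, Heyl, a Notch target that mural cells express, rose after S961 (0.998 ± 0.223, adjusted p = 0.0171). Of 12 basement membrane genes, Sparc rose after S961 (0.64 ± 0.17, adjusted p = 0.033).

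Markers of neighbouring cells were counted in the same way, and their sums, which were not tested, overlapped between the labelled genotypes. The 13 listed fibroblast genes summed to 108.2 to 230.7 CPM (median 170.5) in libraries labelled βKlf6KO S961 and 81.8 to 132.8 CPM (median 101.2) in those labelled control S961. The sums were 70.1 to 261.2 CPM (median 128.2) in libraries labelled βKlf6KO saline and 58.5 to 146.8 CPM (median 98.1) in those labelled control saline. After S961, 4 of 13 fibroblast genes were called, all higher, among them Col1a2 (1.57 ± 0.33, limma adjusted p = 0.0111), against 4.36% of all genes. After saline 2 of 13 were called, again higher, against 2.78% of all genes. Of 11 mural genes, Acta2 rose after S961 (1.80 ± 0.39, adjusted p = 0.0145) and Mylk after saline (1.37 ± 0.35, adjusted p = 0.03). The mural sums had medians of 63.0 and 44.4 CPM after S961 (βKlf6KO and control) and of 63.6 and 45.6 CPM after saline.

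The 17 listed macrophage genes summed to 189.5 to 611.1 CPM (median 236.8) in libraries labelled βKlf6KO S961 and 140.7 to 288.8 CPM (median 186.95) in those labelled control S961. After saline the sums were 207.6 to 981.7 CPM (median 441.8) in libraries labelled βKlf6KO and 133.7 to 217.1 CPM (median 178.5) in those labelled control. After saline 5 of 16 tested were called higher, and after S961 none was, while 8 had an unadjusted p below 0.05. Over all genes, 4.36% were called after S961 and 2.78% after saline, the shares to set beside this count and the next ones. Of 6 lymphocyte genes, 2 were called higher after saline. Of 12 proliferation genes, 5 were called after S961 and 11 after saline, all higher. Lymphatic (2 tested), platelet (1) and acinar (9) genes gave no call, and 3 of 8 β cell genes were called lower after S961 and 2 after saline. After S961, 6 of the 9 acinar genes had an unadjusted p below 0.05, against 22.9% of all genes, with a median log2 difference of 0.96. After saline 0 of the 9 did, with a median of -0.05. The part of these neighbouring cells in the values of Nrp1, Ets1 and Angpt2 was not tested. The macrophage and lymphocyte fit cannot fully separate those cells from the label, which its covariates in part followed.

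**Figure D4:**
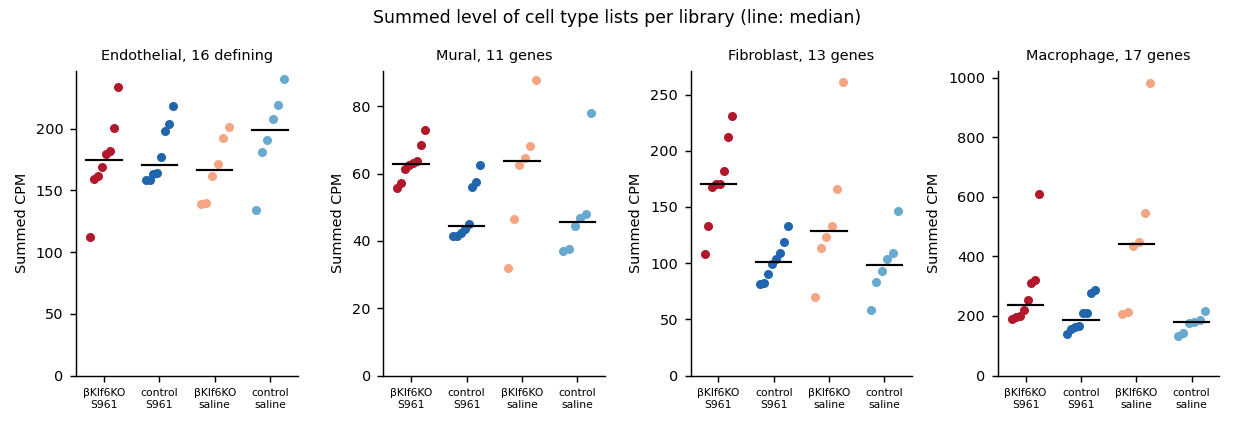
Summed CPM per library of the 16 defining endothelial genes and of the listed mural, fibroblast and macrophage genes, by labelled group, with a line at the group median. The sums overlap between the labelled genotypes in every panel, and the medians of the fibroblast sums after S961 and of the macrophage sums after saline are higher in libraries labelled βKlf6KO.

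The members did not vary as 1 block between libraries. Their within-group SD on the log2 scale had a median of 0.449, from 0.275 (Ramp2) to 0.990 (Aplnr), against a median of 0.361 over the 13584 genes with a known GC content. The GC content of the longest transcript ran from 37.8% to 63.6% over the 37 members. In each of the 3 libraries that stood apart, the 12 members of highest GC content (at least 55.9%) all lay below the median of their group, by a median of -1.36 in control S961 replicate 2, -1.10 in control S961 replicate 8 and -1.06 in control saline replicate 4. The 12 members of lowest GC content (at most 48.8%) had median deviations of 0.78, 0.38 and 0.96 in the same libraries, with 11, 8 and 12 of them above the median of the group.

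Across the members, the Spearman coefficient between GC content and this deviation was -0.80, -0.86 and -0.85 in those libraries, and -0.75 to 0.88 in the other 25. Across all genes it was -0.83, -0.75 and -0.83, and -0.80 to 0.80 in the other 25, so this measure alone does not set the 3 libraries apart. The lowest value of the other 25, over the members as over all genes, was that of βKlf6KO S961 replicate 4. Genes are not independent replicates, and the values of a library share its preparation. Emcn and Plvap, 2 capillary genes with GC contents of 40.7% and 60.6%, show the split. Their log2 ratio was 4.24, 3.42 and 3.94 in those 3 libraries, while the group medians were 1.74 (βKlf6KO S961), 1.98 (control S961), 1.66 (βKlf6KO saline) and 1.59 (control saline). The next highest ratios were 3.01 and 2.89, in βKlf6KO S961 replicates 4 and 1. After the correction for GC content the ratio ran from 1.03 to 2.26 over all libraries. The correction itself makes the medians of genes of like GC content equal across libraries.

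With that correction the within-group SD was smaller for 26 of 37 members, with a median of 0.384, and for 75.5% of all genes, with a median of 0.232. It was 0.282 against 0.689 for Egfl7, 0.403 against 0.949 for Sox18 and 0.263 against 0.423 for Esm1 (corrected against deposited values). It was larger with the correction for Notch4, at 0.601 against 0.364, and for Ramp2, at 0.446 against 0.275. With GC-corrected values 4 members were called after S961, namely Nrp1 (0.90), Aplnr (1.54) and Ets1 (0.53) higher and Esm1 (-0.46) lower, and 1 after saline, Esm1 (-0.69), on the log2 scale. The calls over all genes after S961 grew as well, to 2579 (19.0% of genes) with the correction, against 593 without it. After saline they grew to 1183 (8.71% of genes), against 378. In both comparisons the share called was larger over all genes than over the members.

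**Figure D5:**
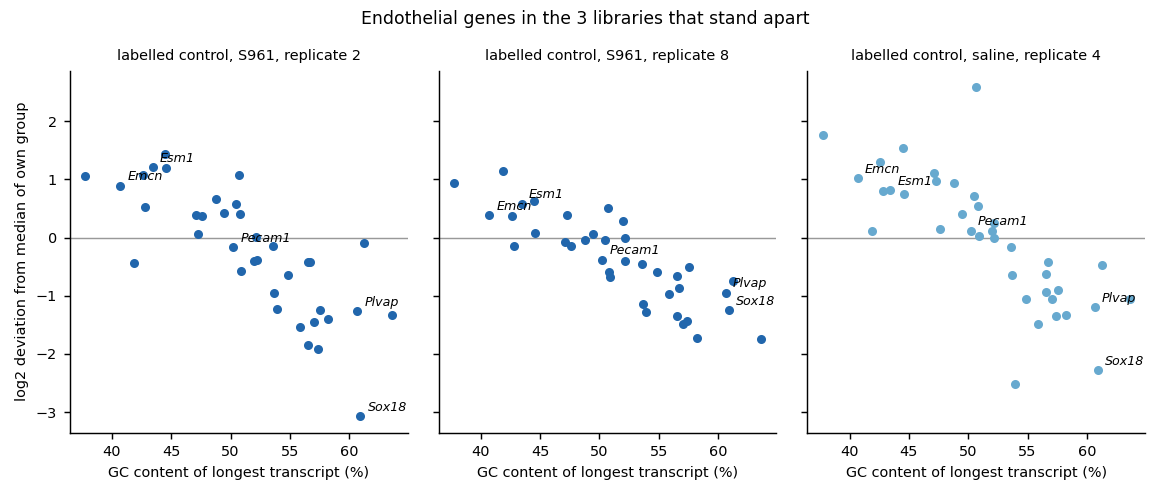
Deviation of each of the 37 tested members from the median of its own labelled group, in log2 units, against the GC content of its longest transcript, in the 3 libraries that stood apart. The 12 members of highest GC content lie below 0 in each library, and most of those of lowest GC content lie above it.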

How the data were processed

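RNA from islets was sequenced as stranded poly(A) libraries with single-end reads, per the labels' protocols. The authors deposited log2 CPM of 14219 genes in 28 libraries, with 0 columns left unmapped. Per the submitters' processing notes, STAR 2.5.3a, HTSeq 0.9.1, edgeR and the build GRCm38 were used. The deposited log2 values had the form log2((reads + 0.5)/scaled library size), and 100% inverted to whole reads within 0.05. Gene positions, exon lengths and GC contents came from GENCODE M21 on GRCm38.

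The members and gene lists were chosen with earlier results of these data known. No scaling was added to the deposited values. The filter required 1 CPM or more in 6 or more libraries, which removed 628 genes and left 13591. In limma 3.58.1 (R 4.3.3), means of the 4 labelled groups were estimated from all 28 libraries with an intensity trend, and p-values were adjusted over all genes (Benjamini-Hochberg, two-sided, threshold 0.05). Each library is 1 mouse. Intervals are 95%. The fit was tested on simulated data, where a single simulated set also gave many calls among unchanged genes. No library was a repeat of another (chi-square over degrees of freedom at least 32.3 in all 86 within-group pairs). Replicate numbers were not taken to pair mice.

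Values are given for Pecam1, Cdh5, Kdr, Tie1 and Plvap, for called members, for the 3 members with the smallest p in a comparison without a call, for the 5 highest per length and for members not tested. From the companion lists, called genes are counted and some named. Ets1, Erg, Icam2, Vwf, Nos3, Sox18 and Notch4 were chosen after their values were seen. Alternatives changed the filter, floor, scaling, weights, moderation, libraries and covariates, or removed a trend over 20 bins of GC content.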

Additional observations from a re-analysis of the deposited data

Results flagged for a closer look

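Of 72 groups of values of the named members, 1 held a library far from the others, where about 1 in 20 would by chance. Pecam1 was 3.92 log2 CPM in labelled control saline replicate 2, and 4.48 to 4.77 in the other libraries of that group, a gap of 0.66 of the range, above Dixon's critical value at the 95% level for 6 samples. That library also had the lowest sum of defining endothelial genes in its group, 133.8 CPM.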

How the results depend on the processing

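Of 3618 values of the named members and Angpt2 under alternatives, 3578 stayed on the same side of the threshold, 23 lost and 17 gained a call, and no called value reversed. The count of members called between genotypes after S961 (1) was 0 with median centring, with only the groups compared and with macrophage and lymphocyte means as covariates, 2 with voom weights and without the 3 libraries that stood apart, 4 (3 higher, 1 lower) with the GC correction, and 0 to 2 on leaving out single libraries. With library weights it was 1, but Aplnr (adjusted p = 0.0219) in place of Nrp1. After saline the count (0) was 1, Esm1 lower, with quantile normalization, only the groups compared, without those 3 libraries and with the GC correction, and 0 to 1 on leaving out single libraries. With library weights it was 8, of which 7 were higher (Cd34, Aplnr, Cav1, Fli1, Ets1, Clec14a and Ecscr) and Esm1 lower. That setting called 3018 of all 13591 genes after saline, a share close to that of the members. The GC correction called 19.0% of all genes after S961 and 8.71% after saline. The median member difference after saline was -0.247 with macrophage and lymphocyte means as covariates, against 0.098, and -0.1 with quantile normalization. The causes were not tested.

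Over all genes, calls after S961 (593) ran from 177 to 817 on leaving out single libraries and from 35 (only the groups compared) to 2579 (GC correction). After saline (378) they ran from 214 to 532 and from 48 (macrophage and lymphocyte means) to 3018 (library weights), so the share called depends strongly on the setting. S961 against saline in islets labelled βKlf6KO gave up to 11, with values floored at 1 CPM.

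Of 38 same-numbered pairs, 13 had correlated deviations above 0.1 (range -0.712 to 0.85). Differently numbered pairs were not compared, so these values do not settle whether the replicate numbers pair the samples. With a replicate block, 1 member was called after S961 (Nrp1, 0.769, adjusted p = 0.0354). A fit of only the groups compared was not run for the difference of genotype effects. Members near 1 CPM (Aplnr, Icam2, Nos3, Sox18, Vwf) rest on few reads. The SE of the genotype difference after S961 was largest for Aplnr (0.477), Sox18 (0.459) and Vwf (0.397). It was larger for Eng (0.372), at a mean of 13.1 CPM, than for Nos3 (0.351) and Icam2 (0.322).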
